A study of Mus musculus with 12 samples.

Results

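Chemokines are small secreted proteins that attract leukocytes along a gradient, and 10 chemokine genes of fibroblasts were followed here among 19938 genes measured in NIH3T3 cells. They were chosen by name and comprise the CC chemokines Ccl2, Ccl7, Ccl5 and Ccl20, the CXC chemokines Cxcl1, Cxcl2, Cxcl5, Cxcl10 and Cxcl12, and the membrane-anchored Cx3cl1. Each had 1 probe set with a single gene symbol, so all 10 were measured and none was lost to a filter. NIH3T3 is an immortalised mouse fibroblast line grown with serum. The 4 groups of 3 arrays were Mock (transfection reagent without siRNA), sirEGFP (an siRNA named for EGFP), and sirUBF oligo #1 and oligo #2, which are 2 independent siRNAs against UBF. Each siRNA was given at 40 nM, and all cells were harvested at 48 h. UBF, encoded by Ubtf, is a nucleolar factor that helps RNA polymerase I to transcribe ribosomal RNA genes. The design asks what silencing it does to expression, against an unrelated siRNA and against reagent alone.

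Fibroblasts make chemokines when cytokine receptors or sensors of foreign nucleic acid are engaged. NF-kB and AP-1 act on most of these genes, and interferon-activated factors act on a subset such as Cxcl10. Ccl2 and Ccl7 attract monocytes through the receptor CCR2. Cxcl1, Cxcl2 and Cxcl5 attract neutrophils through CXCR2, and Cxcl10 attracts activated T cells through CXCR3. Cxcl12 signals through CXCR4 and is known as a product of stromal cells.

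Values are log2 expression levels, and a change is a difference between group means with limma's standard error (SE). A gene was called at a Benjamini-Hochberg adjusted p under 0.05 over all 19938 genes. Levels of different genes cannot be compared on this scale, since each comes from its own probes. The array medians lay between 5.38 and 5.54. The Ubtf transcript was between 8.04 and 8.68 on the 6 control arrays and between 7.49 and 7.998 on the 6 UBF siRNA arrays, which did not overlap. For the mean of both siRNAs its change was -0.76 against Mock (adjusted p = 0.00968) and -0.58 against sirEGFP (adjusted p = 0.0526), so only the first passed. Against sirEGFP neither siRNA passed alone, with oligo 1 at -0.55 (adjusted p = 0.107) and oligo 2 at -0.61 (adjusted p = 0.0771). Against Mock both did (adjusted p = 0.0252 and 0.0146). The mean against sirEGFP passed without sirEGFP 3 (-0.73, adjusted p = 0.0432) or oligo 1 array 1 (-0.63, adjusted p = 0.0405). It also passed with the replicate number as a block (adjusted p = 0.00715), with quantile normalization (-0.60, adjusted p = 0.0435), with array weights (-0.62, adjusted p = 0.00386) and with dim genes left out (adjusted p = 0.0434). The weights rest mostly on oligo 1 array 3 (8.92, against 0.44 and 0.42 for the other oligo 1 arrays). Of 15 fibroblast markers, 14 lay above the median of all genes. Of 11 measured leukocyte and macrophage markers 3 did, of 7 endothelial markers 1, of 7 epithelial markers 1 and of 7 adipocyte markers 2. Because levels depend on the probes, these counts describe signal only. Every sample is titled NIH3T3, a single fibroblast line, so the counts are no measure of a mixture of cell types. Each array reads RNA pooled from a culture, so fewer cells with a transcript and less of it per cell cannot be told apart.

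Ccl2 and Ccl7, the 2 monocyte attractants, were higher with both UBF siRNAs than with sirEGFP, and higher with oligo 2 than with oligo 1. Ccl2 was 1.80-fold higher with oligo 1 and 3.89-fold with oligo 2. Ccl7 was 2.08-fold higher with oligo 1 and 3.37-fold with oligo 2. Against Mock, neither gene passed with oligo 1 (adjusted p = 0.105 for Ccl2 and 0.0981 for Ccl7), and both passed with oligo 2. Cxcl10 was 1.95-fold higher with oligo 2 alone, and oligo 2 differed from oligo 1. Cxcl5 was highest in Mock and lowest with oligo 2, and passed the test against Mock but not against sirEGFP. The other 6 genes passed in none of these comparisons.

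The level of Ccl2 was 11.07, 10.19 and 10.49 in Mock, 10.51, 10.10 and 10.45 under sirEGFP, 11.37, 11.03 and 11.20 after oligo 1, and 12.36, 12.30 and 12.28 after oligo 2. The oligo 2 arrays were above the other 9, and the oligo 1 arrays were above sirEGFP. Of the 6 control arrays, 5 lay below all 6 UBF siRNA arrays, and Mock 1 reached above the lowest oligo 1 array. The group means were 10.58 ± 0.45 (SD, n = 3) for Mock, 10.35 ± 0.22 for sirEGFP, 11.20 ± 0.17 after oligo 1 and 12.32 ± 0.044 after oligo 2. Mock and sirEGFP, neighbours in that order, differed by -0.22 ± 0.19 (SE, adjusted p = 0.891), and without Mock 1 by 0.019. Against sirEGFP the change was 0.84 ± 0.19 with oligo 1 (adjusted p = 0.0269) and 1.96 ± 0.19 with oligo 2 (adjusted p = 5.02e-05).

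The level of Ccl7, whose gene lies next to Ccl2, was 10.15, 9.49 and 9.59 in Mock, 9.25, 9.14 and 9.39 under sirEGFP, 10.60, 10.29 and 10.06 after oligo 1, and 11.03, 11.02 and 10.99 after oligo 2. The order of the groups was that of Ccl2, with Mock 1 again as the control array that reached into the oligo 1 range. Here the 3 sirEGFP arrays also lay below the 3 Mock arrays. The group means were 9.74 ± 0.36 (SD, n = 3), 9.26 ± 0.12, 10.32 ± 0.27 and 11.01 ± 0.018 in the same order. Against sirEGFP, oligo 1 gave Ccl7 a change of 1.06 ± 0.17 (adjusted p = 0.00403) and oligo 2 gave one of 1.75 ± 0.17 (adjusted p = 5.74e-05).

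**Figure D1:**
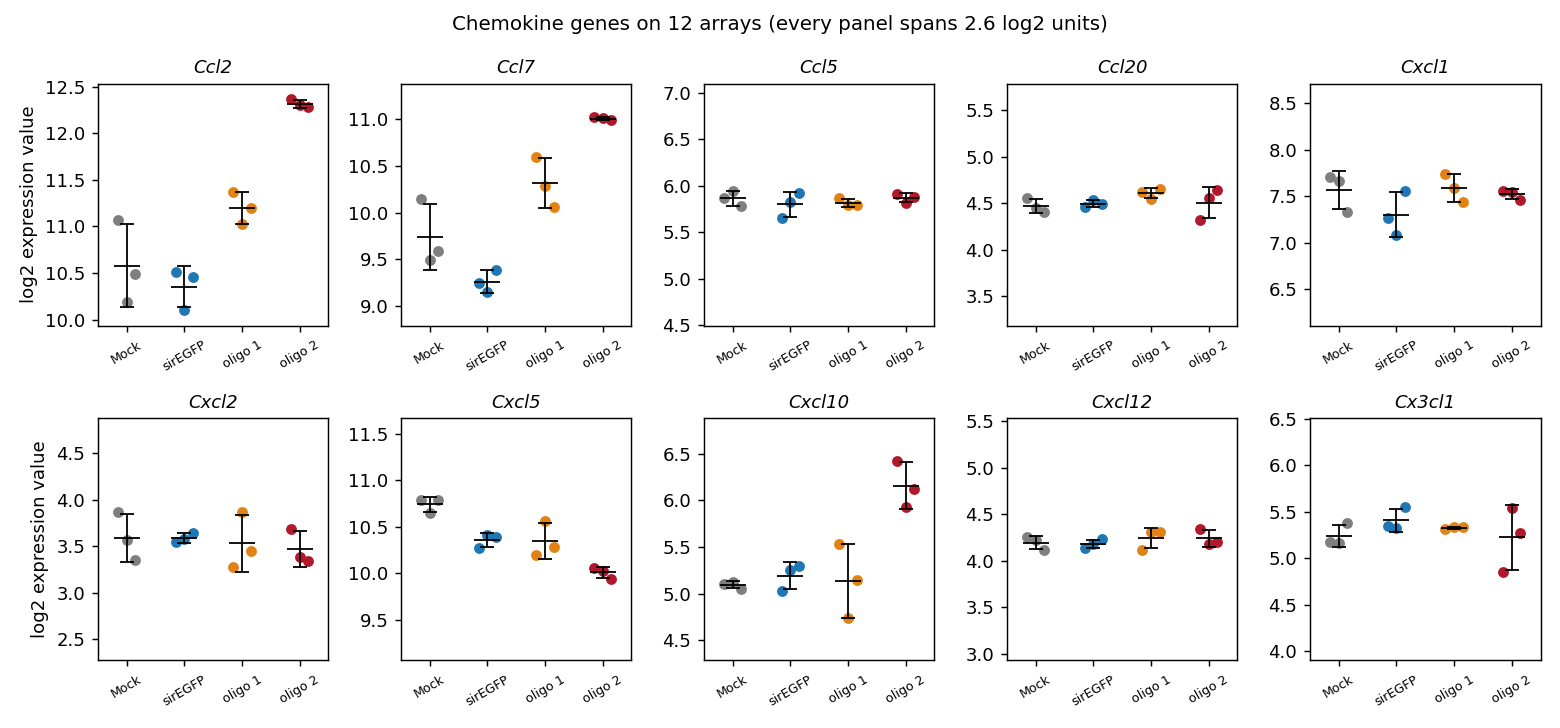
Log2 expression value of each of the 10 chemokine genes (y axis, every panel spanning the same range of log2 units) on the 12 arrays by group (x axis); points are arrays, and bars are the mean and SD of 3 arrays. The oligo 2 arrays of Ccl2 (12.28 to 12.36), Ccl7 (10.99 to 11.03) and Cxcl10 (5.93 to 6.43) lie above the other 9 arrays, and those of Cxcl5 (9.94 to 10.06) lie below them.

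With oligo 1 against sirEGFP, 2 of the 10 genes were called higher and 0 lower, where 1.04% of all genes were called higher, 1.43% lower and 2.47% in either direction. With oligo 2, 3 were called higher and 0 lower, against 1.52% of all genes higher, 0.742% lower and 2.26% in either direction. With the replicate number as a block the calls with oligo 2 over all genes went from 451 to 773, and the chemokine calls remained Ccl2, Ccl7 and Cxcl10. For the mean of both siRNAs, 2 were called higher, Ccl2 at 1.40 ± 0.16 (adjusted p = 0.000588) and Ccl7 at 1.40 ± 0.15 (adjusted p = 0.000387), where 1.21% of all genes were called higher, 0.722% lower and 1.93% in either direction. The median change of the 10 genes in that comparison was 0.061, against 0.0077 for all genes. The comparisons share their 3 sirEGFP arrays, so the changes with the 2 siRNAs are not independent of each other. Without overlap, the 6 UBF siRNA arrays lay above the 3 sirEGFP arrays for Ccl2 and Ccl7, as for 2.91% of all genes. They lay above all 6 control arrays for 0 of the 10, against 1.43% of all genes, and below them for 0 of the 10, against 0.692%.

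The oligo 1 call for Ccl2 depended on which arrays were kept, while its change stayed between 0.72 and 0.93 whichever array was left out. Ccl2 lost its call without sirEGFP 2 (0.72, adjusted p = 0.146), sirEGFP 3 (0.89, adjusted p = 0.0674), oligo 1 array 1 (0.76, adjusted p = 0.0959) or oligo 1 array 3 (0.84, adjusted p = 0.0916), whereas Ccl7 kept it whichever array was left out (largest adjusted p = 0.0305). Ccl2 also lost it when only the oligo 1 and sirEGFP arrays were fitted (adjusted p = 0.0563). Against Mock instead of sirEGFP, neither gene was called with oligo 1: Ccl2 stood at 0.62 (adjusted p = 0.105) and Ccl7 at 0.57 (adjusted p = 0.0981). Both oligo 1 calls also ended without oligo 1 arrays 1 and 2 and sirEGFP 1, which deviated most from their groups along the main direction of spread, a choice made after the data had been seen. Ccl2 was then at 0.92 (adjusted p = 0.127) and Ccl7 at 0.79 (adjusted p = 0.124). With oligo 2 both genes were called in each of these settings.

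Against Mock, oligo 2 gave 3 genes called higher and 1 lower, where 2.93% of all genes were called higher, 1.32% lower and 4.25% in either direction. Ccl2 was at 1.74 ± 0.19 (adjusted p = 0.000138), Ccl7 at 1.27 ± 0.17 (adjusted p = 0.000953) and Cxcl10 at 1.06 ± 0.18 (adjusted p = 0.00359), and Cxcl5 fell by 0.73 ± 0.12 (adjusted p = 0.00322). With oligo 1 against Mock 0 of the 10 were called, against 1.35% of all genes higher, 1.4% lower and 2.75% in either direction. The mean of both siRNAs against Mock gave Ccl2 and Ccl7 higher (1.18 and 0.92, adjusted p = 0.00155 and 0.00351) and Cxcl5 lower (-0.56, adjusted p = 0.00832), where 2.08% of all genes were called higher, 1.22% lower and 3.3% in either direction. With both controls averaged, the mean of both siRNAs gave 3 genes higher (Ccl2, Ccl7 and Cxcl10) and 1 lower (Cxcl5, -0.37, adjusted p = 0.0188), where 3.05% of all genes were called higher, 1.87% lower and 4.93% in either direction.

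**Figure D2:**
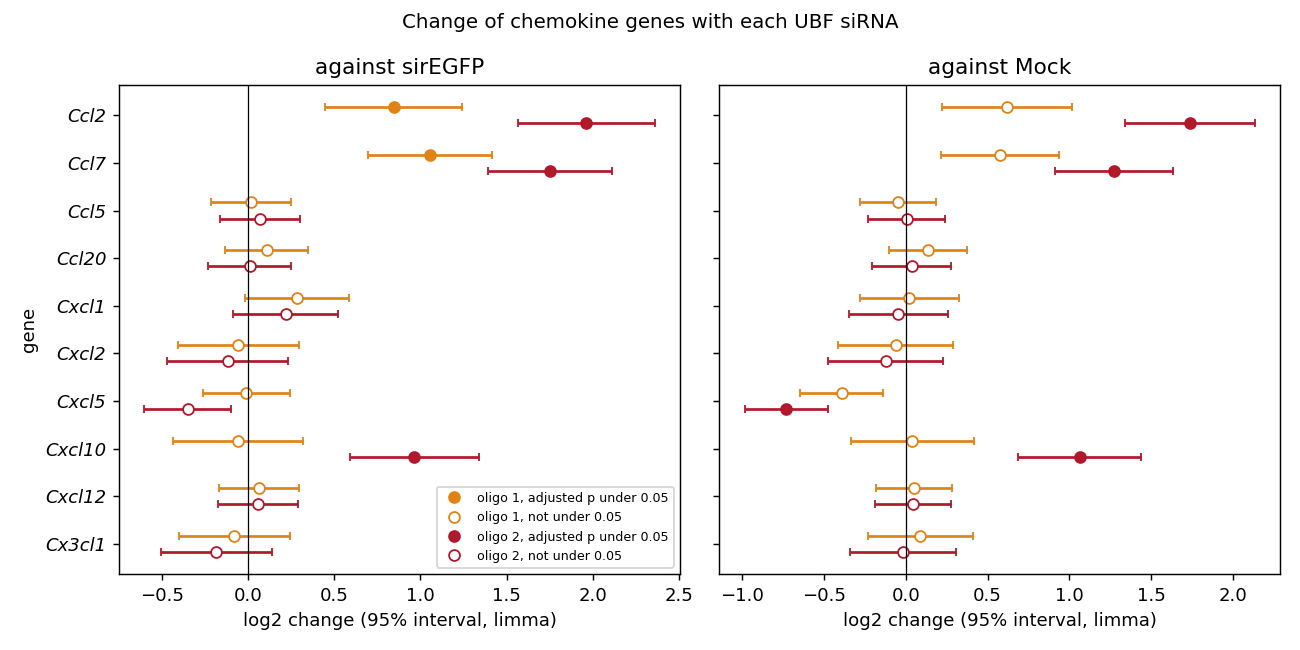
Log2 change of each chemokine gene (y axis) with oligo 1 and with oligo 2, against sirEGFP in the left panel and against Mock in the right panel (x axes; the panels have different ranges). Points are limma estimates with 95% intervals, filled where the adjusted p is under 0.05. With oligo 2, Ccl2, Ccl7 and Cxcl10 are filled in both panels and Cxcl5 (-0.73) only against Mock.

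Cxcl10, an interferon-inducible ligand of CXCR3, was higher with oligo 2 only. Its level was 5.11, 5.13 and 5.05 in Mock, 5.03, 5.26 and 5.29 under sirEGFP, 5.53, 4.74 and 5.15 after oligo 1, and 6.43, 5.93 and 6.12 after oligo 2. The 3 oligo 2 arrays were above the other 9, while the oligo 1 arrays spread over a wider range than both control groups together. The means were 5.10 ± 0.038 (SD, n = 3), 5.19 ± 0.14, 5.14 ± 0.40 and 6.16 ± 0.25. Against sirEGFP the change was -0.056 ± 0.18 with oligo 1 (adjusted p = 0.947) and 0.97 ± 0.18 with oligo 2 (adjusted p = 0.00868). The mean of both was 0.45 ± 0.15 (adjusted p = 0.172), which did not pass. Without oligo 2 array 1, its highest array, the oligo 2 change was 0.83 (adjusted p = 0.0513). Without oligo 1 array 2, its lowest array, the mean of both passed (0.56, adjusted p = 0.0291). Array weights gave it a call (0.42, adjusted p = 0.0262), and so did the average of both controls (0.50, adjusted p = 0.0298).

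The oligos were compared with each other in the same fit. Ccl2 was higher with oligo 2 than with oligo 1 by 1.12 ± 0.19 (adjusted p = 0.00337), Ccl7 by 0.69 ± 0.17 (adjusted p = 0.0326) and Cxcl10 by 1.02 ± 0.18 (adjusted p = 0.00432). These were 3 of the 10 genes called higher and 0 lower, where 2.3% of all genes were called higher, 1.37% lower and 3.67% in either direction. The 3 oligo 2 arrays lay above all other 9 for these genes, as for 3.32% of all genes, and so above the 3 oligo 1 arrays, as for 9.19%. They lay below all other 9 for Cxcl5, as for 1.8%. Centring each array on its median moved the split of calls over all genes from 459 higher and 273 lower to 637 and 192. The difference in Ccl7 lost its call without oligo 1 array 2 (0.68, adjusted p = 0.0615), oligo 1 array 3 (0.57, adjusted p = 0.160) or any 1 oligo 2 array (0.69 to 0.71, adjusted p between 0.101 and 0.103). Without the same 3 deviating arrays, Cxcl10 kept its call, and Ccl2 (1.12, adjusted p = 0.0606) and Ccl7 (0.95, adjusted p = 0.0613) did not. The Ubtf level was 7.79 ± 0.19 (SD, n = 3) with oligo 1 and 7.74 ± 0.22 with oligo 2. The design gives no dose series, and both siRNAs were used at the same dose. What makes the siRNAs differ was not tested.

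Some markers of cell types also differed with oligo 2. The mean deviation of the 15 fibroblast markers from their overall mean ranged from -0.12 to 0.017 on the Mock arrays, -0.27 to -0.094 with sirEGFP, -0.11 to 0.20 with oligo 1 and 0.11 to 0.28 with oligo 2. Of the 15, 3 were called higher and 0 lower with oligo 2 against sirEGFP, where 1.52% of all genes were called higher: Prrx1 (1.13, adjusted p = 0.000272), Pdgfra (0.91, adjusted p = 0.0119) and Pdgfrb (1.75, adjusted p = 0.0126). Against oligo 1, oligo 2 gave 3 of the 15 higher and 1 lower, Thy1 (-0.67, adjusted p = 0.0305). Over all genes 2.3% were called higher and 1.37% lower there. The 11 leukocyte and macrophage markers ranged from -0.19 to 0.054 in Mock, -0.065 to 0.041 with sirEGFP, 0.045 to 0.16 with oligo 1 and -0.17 to 0.051 with oligo 2. With oligo 2 against sirEGFP, 0 of the 11 were called, where 2.26% of all genes were called in either direction. The 11 changes ran from -0.61 to 1.00. With oligo 1, 1 was called, Csf1r at 0.83 (adjusted p = 0.00874), where 2.47% of all genes were called in either direction. Between the siRNAs, 2 of the 11 were called lower with oligo 2 and 0 higher, Lyz2 (-1.29, adjusted p = 0.00145) and Csf1r (-0.80, adjusted p = 0.00807), where 1.37% of all genes were called lower. The 7 adipocyte markers ranged from -0.096 to -0.038 in Mock, -0.13 to 0.097 with sirEGFP, -0.14 to 0.18 with oligo 1 and 0.079 to 0.16 with oligo 2, where Fabp4 was called (1.65, adjusted p = 0.000143). Of the 7 adipocyte markers only 2 were above 0 with oligo 2 against sirEGFP, and their median change was -0.076. The 7 endothelial markers ranged from -0.13 to 0.23 in Mock, -0.13 to 0.11 with sirEGFP, -0.14 to -0.055 with oligo 1 and 0.028 to 0.25 with oligo 2, and the siRNA groups did not overlap. Of these 7, Cdh5 was called between the siRNAs (0.96, adjusted p = 0.0176). The 7 epithelial markers ranged from -0.12 to 0.12 in Mock, -0.035 to 0.13 with sirEGFP, -0.016 to 0.067 with oligo 1 and -0.12 to -0.050 with oligo 2, again without overlap between the siRNAs but in the other direction, and 0 were called. Thy1, Lyz2 and Cdh5 were chosen after their values were seen. The part of these markers in the chemokine result was not tested.

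Cxcl5, a neutrophil attractant, had its lowest levels with oligo 2. Its level was 10.78, 10.65 and 10.78 in Mock, 10.27, 10.41 and 10.39 under sirEGFP, 10.19, 10.56 and 10.28 after oligo 1, and 10.06, 10.02 and 9.94 after oligo 2. The Mock arrays were above all other 9, as for 0.617% of all genes, the oligo 2 arrays were below all others, and sirEGFP and oligo 1 overlapped. The means were 10.74 ± 0.076 (SD, n = 3), 10.36 ± 0.079, 10.35 ± 0.19 and 10.01 ± 0.060. Against sirEGFP the change was -0.0099 ± 0.12 with oligo 1 (adjusted p = 0.989) and -0.35 ± 0.12 with oligo 2 (adjusted p = 0.174), and oligo 2 differed from oligo 1 by -0.34 (adjusted p = 0.159). Of the settings tried with sirEGFP as the control, only array weights gave a call for oligo 2 (-0.39, adjusted p = 0.0347). They gave one against oligo 1 too (-0.30, adjusted p = 0.0230), where the oligo 1 mean rests mostly on array 3 (weight 8.92, against 0.44 and 0.42). The sirEGFP arrays differed from Mock by -0.38 ± 0.12 without passing (adjusted p = 0.714).

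Between the control groups themselves, 0 of 19938 genes and 0 of the 10 were called by limma (0% of all genes), while 1247 genes and 2 of the 10 had an unadjusted p under 0.05. Those 2 were Cxcl5 (unadjusted p = 0.00562) and Ccl7, at -0.48 ± 0.17 (unadjusted p = 0.0125, adjusted p = 0.727). Both lay lower on the 3 sirEGFP arrays than on the 3 Mock arrays without overlap, as 3.87% of all genes did. The size of the UBF siRNA change in these genes therefore depends on the control.

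Cxcl1 showed no called change. Its level was 7.70, 7.66 and 7.33 in Mock, 7.26, 7.08 and 7.56 under sirEGFP, 7.73, 7.59 and 7.44 after oligo 1, and 7.56, 7.54 and 7.46 after oligo 2. Of the 6 control arrays, 3 lay below all 6 UBF siRNA arrays and the others lay among them. Against sirEGFP it was at 0.28 ± 0.14 with oligo 1 (adjusted p = 0.419) and at 0.22 ± 0.14 with oligo 2 (adjusted p = 0.600). Against Mock the mean of both was -0.011 (95% interval -0.27 to 0.25), so the direction turned with the control.

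The remaining 5 genes were called in none of the comparisons. Ccl5, which attracts T cells and monocytes, lay between 5.65 and 5.94 on all 12 arrays, and the mean of both siRNAs was 0.044 against sirEGFP (95% interval -0.16 to 0.25). Ccl20, the ligand of CCR6, lay between 4.32 and 4.65, with a mean change of 0.060 (-0.15 to 0.27). Its 3 oligo 1 arrays (4.62, 4.55 and 4.65) were above the 3 sirEGFP arrays (4.46, 4.54 and 4.49), as 8.33% of all genes were, at a change of 0.11 that did not pass (adjusted p = 0.782). Cxcl2 lay between 3.27 and 3.87 (change -0.086, -0.39 to 0.22). Cxcl12 lay between 4.11 and 4.35 (change 0.062, -0.14 to 0.26). Cx3cl1, which tethers cells that carry CX3CR1, lay between 4.86 and 5.55 (change -0.13, -0.41 to 0.15), with the widest spread among the oligo 2 arrays (4.86, 5.55 and 5.27). Ccl20, Cxcl2 and Cxcl12 were in the third of genes with the lowest mean over the arrays, and these values do not tell how far they stood above background. For these genes the intervals bound a change in measured level, and a smaller change was not detectable with 3 arrays a group.

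Over the 12 arrays, Ccl2 and Ccl7 followed each other closely (Pearson's r = 0.965). The genes most like Ccl2 were Plcb4 (r = 0.968), Ccl7 and Epc1 (r = 0.963), and those most like Ccl7 were Plcb4 (r = 0.968), Ccl2 and Aggf1 (r = 0.952). Cxcl10 followed Ccl2 at r = 0.814, and Cxcl5 ran against both, at -0.730 with Ccl2 and -0.779 with Cxcl10. The 12 points fall into 4 treatment groups, so these values describe the arrays and carry no test.

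Many chemokine genes lie in clusters, and neighbours did not all move together. Genes were grouped where starts of neighbours lay within 200 kb in the RefSeq order of GRCm38.p6. On chromosome 11, Ccl2 and Ccl7 begin a row of 6 that goes on with Ccl11, Ccl12, Ccl8 and Ccl1. Against sirEGFP, only Ccl2 and Ccl7 of this row were called with either siRNA or their mean. Against Mock, the mean of both siRNAs also gave a call for Ccl8 (0.65, adjusted p = 0.0369) and Ccl11 (0.50, adjusted p = 0.0211). With oligo 2 against sirEGFP, Ccl8 stood at 0.72 (adjusted p = 0.0526), Ccl11 at 0.43 (adjusted p = 0.0985), Ccl12 at -0.14 and Ccl1 at 0.088. In the other cluster on chromosome 11, Ccl5 neighbours Ccl9, Ccl6, Ccl3 and Ccl4, of which Ccl9 was called. On chromosome 5, Cxcl5, Ppbp, Pf4, Cxcl3, Cxcl15, Cxcl1 and Cxcl2 form a row of 7 in which Ppbp was called and the 3 genes followed here were not. Cxcl10 lies beside Cxcl9, another interferon-inducible CXCR3 ligand, which stood at -0.16 with oligo 2 (adjusted p = 0.752).

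**Figure D3:**
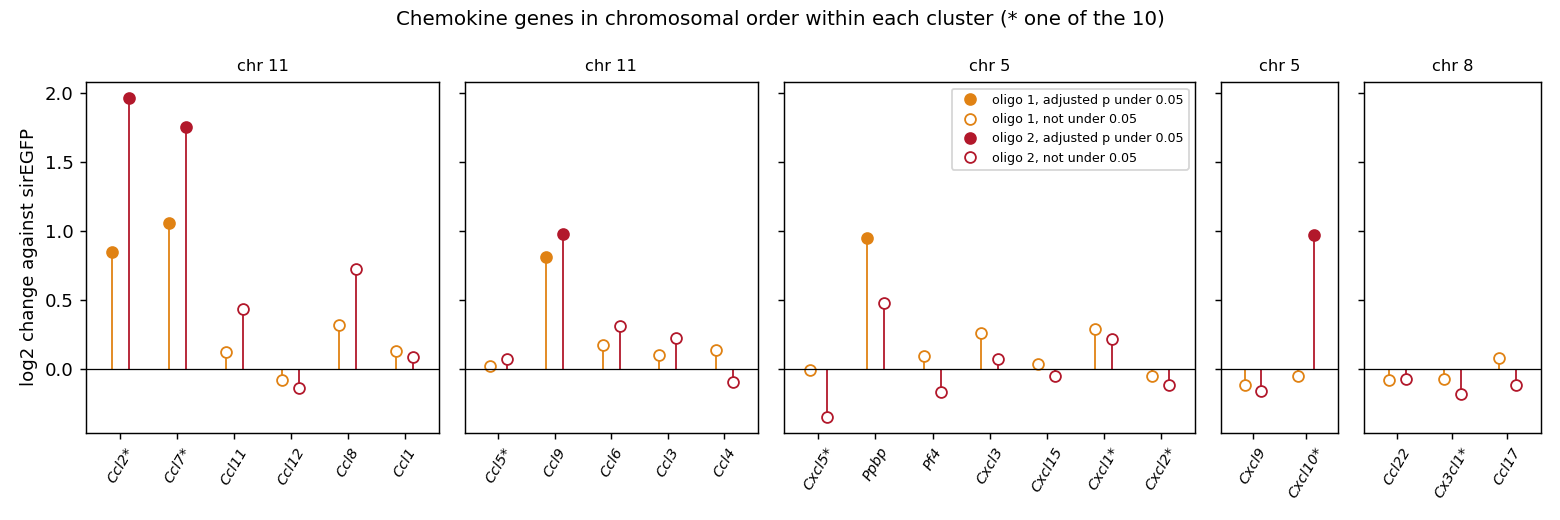
Log2 change against sirEGFP (y axis) with oligo 1 and oligo 2 for chemokine genes in chromosomal order within each cluster (x axis; equal spacing, not to distance; asterisks mark the 10 genes). Points are limma estimates, filled where the adjusted p is under 0.05. Within the 6-gene row of Ccl2 and Ccl7 only these 2 are filled, and Cxcl10 (0.97) stands beside Cxcl9 (-0.16).

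The promoter windows were read from RefSeq (GRCm38.p6) as the 250 bases before each gene's start, and 6 of the 10 genes had an entry: Ccl20, Cxcl1, Cxcl2, Cxcl10, Cxcl12 and Cx3cl1. Ccl2, Ccl7, Ccl5 and Cxcl5 had no entry. Both strands were searched for the kappaB consensus bound by NF-kB, for the core of the interferon-stimulated response element (GAAA, any 2 bases, GAAA) and for the AP-1 site (TGANTCA). The windows of Cxcl10, which was called with oligo 2, and of Cxcl1 and Cxcl2, which were not called, are shown because they share a kappaB match and differ in the others; capitals mark the matches.
Cxcl10, chr5:92348890-92349139, minus strand: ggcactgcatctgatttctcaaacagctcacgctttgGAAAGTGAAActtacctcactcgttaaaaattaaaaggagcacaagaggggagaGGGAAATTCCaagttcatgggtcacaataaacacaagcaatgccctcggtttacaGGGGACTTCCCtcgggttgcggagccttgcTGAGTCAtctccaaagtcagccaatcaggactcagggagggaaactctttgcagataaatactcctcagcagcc
Cxcl1, chr5:90890995-90891244, plus strand: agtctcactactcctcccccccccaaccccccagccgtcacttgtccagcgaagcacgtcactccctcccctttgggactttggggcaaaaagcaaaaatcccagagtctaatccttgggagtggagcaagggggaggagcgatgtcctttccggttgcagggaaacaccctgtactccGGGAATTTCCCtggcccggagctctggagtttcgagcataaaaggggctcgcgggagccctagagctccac
Cxcl2, chr5:90903649-90903898, plus strand: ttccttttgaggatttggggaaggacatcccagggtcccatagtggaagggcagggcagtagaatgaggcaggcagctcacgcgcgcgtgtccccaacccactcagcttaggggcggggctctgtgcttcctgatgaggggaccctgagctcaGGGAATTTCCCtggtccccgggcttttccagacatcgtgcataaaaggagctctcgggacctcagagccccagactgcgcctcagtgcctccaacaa
The Cxcl10 window held a kappaB match at 2 places, starting 159 and 104 bases before the start, with the response element core starting 213 and the AP-1 site 74 bases before it. The windows of Cxcl1 and Cxcl2 held the same kappaB letters, GGGAATTTCCC, starting 71 and 97 bases before the start, and neither of the other motifs. Ccl20 held a kappaB match starting 80 bases before the start, and Cxcl12 and Cx3cl1 held none of the 3 motifs. So 4 of the 6 windows held kappaB and 1 each of the others, against 7.25% of all 32851 windows of this length for kappaB, 2.98% for the response element core and 6.75% for AP-1. A kappaB match was present in Cxcl10, called with oligo 2, and in 3 genes that were not called. Of these, Ccl20 and Cxcl2 were in the third of genes with the lowest mean. Matches of letters are a description and show no binding.

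The other chemokine genes were represented by 26 measured of 27 listed. Their median change for the mean of both siRNAs against sirEGFP was -0.015. Of the 26, 2 were called higher and 0 lower, where 1.21% of all genes were called higher and 0.722% lower. Against Mock the median was 0.041. There 4 were called higher and 0 lower, where 2.08% of all genes were called higher and 1.22% lower. Those 4 were Ccl8, Ccl11, Ccl9 and Ppbp. Ccl9, a CC chemokine that attracts cells with CCR1, stood at 8.92, 8.28 and 8.37 in Mock, 8.10, 8.50 and 8.24 under sirEGFP, 9.26, 9.21 and 8.81 after oligo 1, and 9.53, 9.03 and 9.21 after oligo 2. The UBF siRNA arrays lay above the sirEGFP arrays, as for 2.91% of all genes, and Mock 1 again reached into the range of the UBF siRNA arrays. Ccl9 rose by 0.90 ± 0.16 (adjusted p = 0.0108) for the mean. Oligo 1 alone gave 0.81 (adjusted p = 0.0324) and oligo 2 gave 0.98 (adjusted p = 0.0118), and the oligos differed by 0.16 (adjusted p = 0.781). The mean lost its call without sirEGFP 3 (0.87, adjusted p = 0.0651), as did oligo 2 (0.96, adjusted p = 0.0525). Oligo 2 also lost it without its own array 1 (0.84, adjusted p = 0.0677). The oligo 1 call was lost without any 1 of sirEGFP 1, 2 or 3, oligo 1 array 1 or 2, or oligo 2 array 3, at 0.72, 0.92, 0.79, 0.73, 0.76 and 0.81 (adjusted p between 0.0503 and 0.116). It was also lost with only the groups compared (adjusted p = 0.0748), against Mock (0.57, adjusted p = 0.148) and without the 3 deviating arrays (0.44, adjusted p = 0.511). Without those 3 arrays the mean of Ccl9 lost its call too (0.67, adjusted p = 0.0791), whereas against Mock it kept it (0.65, adjusted p = 0.0406).

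Ppbp, the precursor of neutrophil-attracting platelet peptides, was higher with oligo 1. Its level was 7.84, 7.25 and 7.58 in Mock, 7.42, 7.58 and 7.31 under sirEGFP, 8.37, 8.58 and 8.19 after oligo 1, and 7.89, 8.07 and 7.78 after oligo 2. The oligo 1 arrays were above all others, and the oligo 2 arrays lay between them and sirEGFP. Ppbp rose by 0.71 ± 0.13 for the mean of both (adjusted p = 0.0140). Oligo 1 alone gave 0.95 (adjusted p = 0.00474) and oligo 2 gave 0.48 (adjusted p = 0.150). The oligos differed by -0.47 without passing (adjusted p = 0.129). Without sirEGFP 3 the mean was at 0.65 (adjusted p = 0.105). Without the 3 deviating arrays it was at 0.61 (adjusted p = 0.0675) and oligo 1 at 0.75 (adjusted p = 0.137). So this order of the siRNAs, unlike that of Ccl2, did not pass a test.

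Among 22 measured chemokine receptors 0 were called for the mean or for either siRNA, and their median was -0.020. The 2 with the smallest p were Xcr1 (-0.41, adjusted p = 0.0627) and the scavenging receptor gene Ackr3 (0.34, adjusted p = 0.410). Xcr1 passed with the replicate number as a block (adjusted p = 0.0496) and with array weights (-0.38, adjusted p = 0.0164), but against Mock it was at -0.020 (adjusted p = 0.970). Ackr3 turned to -0.53 against Mock (adjusted p = 0.106). Among 22 genes of NF-kB signalling and its feedback inhibitors 0 were called, at a median of 0.079. Birc3, an NF-kB target that modifies its signalling complexes, was at 0.32 (adjusted p = 0.132), and the kinase gene Map3k7 at 0.33 (adjusted p = 0.141). Birc3 passed with array weights (0.30, adjusted p = 0.0326), and Map3k7 passed against both controls averaged (0.34, adjusted p = 0.0304). Among 22 genes of the interferon arm 0 were called against sirEGFP, at a median of 0.10. The receptor genes Ifnar1 and Ifngr2 stood at 0.28 (adjusted p = 0.149) and 0.46 (adjusted p = 0.151). Against Mock 2 of the 22 were called higher and 0 lower, where 2.08% of all genes were called higher: Ifnar1 (0.42, adjusted p = 0.0212) and Ifnar2 (0.56, adjusted p = 0.0155), which encode the type I interferon receptor. Against both controls averaged, Ifnar1 (0.35, adjusted p = 0.0131) and Ifngr2 (0.51, adjusted p = 0.0259) passed.

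Among 26 cytokines, their receptors and sensors that act upstream of chemokine genes, the median was 0.22 for the mean. Of the 26, 2 were called higher and 0 lower, where 1.21% of all genes were called higher and 0.722% lower. Il6, a cytokine often made together with Ccl2, had levels of 5.68, 4.93 and 5.09 in Mock, 5.58, 5.67 and 5.24 under sirEGFP, 6.27, 6.72 and 5.998 after oligo 1, and 7.14, 6.84 and 7.37 after oligo 2. All 6 UBF siRNA arrays were above all 6 controls, as for 1.43% of all genes. Against sirEGFP, Il6 was at 0.83 with oligo 1 (adjusted p = 0.0567) and rose by 1.62 with oligo 2 (adjusted p = 0.000871), a difference of 0.79 that did not pass (adjusted p = 0.0570). Ddx58, which encodes the RNA sensor RIG-I, lay between 6.64 and 6.96 on the control arrays and between 7.28 and 7.70 with the UBF siRNAs. It rose by 0.64 ± 0.10 for the mean (adjusted p = 0.00518). Oligo 1 alone gave 0.53 (adjusted p = 0.0299) and oligo 2 gave 0.75 (adjusted p = 0.00383). The oligo 1 call of Ddx58 was lost without sirEGFP 1, 2 or 3 or oligo 1 array 1 or 3, at 0.54, 0.54, 0.52, 0.49 and 0.56 (adjusted p between 0.0531 and 0.116). It was also lost with only the groups compared (adjusted p = 0.0864) and without the 3 deviating arrays (0.48, adjusted p = 0.267). Against Mock, 3 of the 26 were called higher for the mean, where 2.08% of all genes were called higher. They were Il6, Ddx58 and Sting1 (1.06, adjusted p = 0.0263), an adaptor of DNA sensing chosen after its values were seen.

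With oligo 2 against sirEGFP, 4 of these 26 were called higher, where 1.52% of all genes were called higher. Besides Il6 and Ddx58 these were Il1rap and Il6st. Il1rap, the shared chain of the IL-1 and IL-33 receptors, rose by 0.85 with oligo 2 (adjusted p = 0.00424), stood at -0.0053 with oligo 1 (adjusted p = 0.995), and differed between the siRNAs (0.86, adjusted p = 0.00289). Il6st, the signalling chain of the IL-6 receptor family, rose by 0.53 (adjusted p = 0.0376), a call lost without any 1 of 7 arrays: Mock 1, sirEGFP 2 or 3, oligo 1 array 3, or oligo 2 array 1, 2 or 3 (0.48 to 0.55, adjusted p up to 0.173). Il6st was at 0.24 against Mock (adjusted p = 0.413) and at 0.38 against both controls averaged (adjusted p = 0.0555), and with only the groups compared its adjusted p was 0.0555. For the mean of both siRNAs Il6st was at 0.43 (adjusted p = 0.0555) and Il1rap at 0.42 (adjusted p = 0.101), and both passed with the replicate number as a block (adjusted p = 0.0210 and 0.0423). With oligo 1, Cgas, the cytosolic DNA sensor, fell by 0.59 (adjusted p = 0.0131). It is outside the rule for naming genes and was chosen after its values were seen. That call was lost without sirEGFP 3 (-0.55, adjusted p = 0.0675) or oligo 1 array 1 (-0.49, adjusted p = 0.0587). It was also lost against Mock (-0.29, adjusted p = 0.258), with only the groups compared (adjusted p = 0.0934) and without the 3 deviating arrays (-0.50, adjusted p = 0.177).

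Chemokine transcripts are short-lived, and proteins of the Zfp36 family speed their decay. Of 12 genes for mRNA decay and stability, 1 was called higher and 0 lower for the mean, at a median of -0.0040. Over all genes 1.21% were called higher and 0.722% lower. Against Mock 1 of the 12 was also called higher, where 2.08% of all genes were called higher. It was a different gene, Rc3h1 (0.53, adjusted p = 0.0176), which encodes an RNA-binding protein that promotes decay and was chosen after its values were seen. Zfp36l1, a decay-promoting member, rose by 1.05 ± 0.16 with oligo 2 (adjusted p = 0.00264) and stood at 0.17 with oligo 1 (adjusted p = 0.750), and the siRNAs differed by 0.88 (adjusted p = 0.00617). The call for its mean (0.61, adjusted p = 0.0359) was lost without any 1 of 8 arrays: Mock 1 or 3, sirEGFP 2 or 3, oligo 1 array 1 or 3, or oligo 2 array 1 or 3 (0.53 to 0.64, adjusted p up to 0.217). It was also lost against Mock (0.39, adjusted p = 0.159) and with only the groups compared (adjusted p = 0.0730).

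Of 17 genes whose products cleave chemokines or hold them at the cell surface, 1 was called higher and 0 lower for the mean, at a median of 0.18. Over all genes 1.21% were called higher and 0.722% lower. Against Mock 1 of the 17 was called higher, where 2.08% of all genes were called higher. It was Adam10 (0.78, adjusted p = 0.000800), a protease that also sheds Cx3cl1, again chosen after its values were seen. Mmp14, a membrane protease, rose by 0.77 ± 0.17 for the mean (adjusted p = 0.0313), and oligo 1 alone gave 0.93 (adjusted p = 0.0189). The mean lost its call without sirEGFP 2 or 3, oligo 1 array 3, or oligo 2 array 1 or 3 (0.69, 0.69, 0.79, 0.72 and 0.79, adjusted p between 0.0567 and 0.204). The oligo 1 value lost it without sirEGFP 2 or 3 or oligo 1 array 1 or 3 (0.85, 0.85, 0.69 and 0.97, adjusted p between 0.0587 and 0.108). Against Mock neither was called, at 0.36 for the mean (adjusted p = 0.347) and 0.52 for oligo 1 (adjusted p = 0.219), and both calls ended with only the groups compared (adjusted p = 0.0770 and 0.136). Ext1, needed for heparan sulfate chains that bind chemokines, rose by 0.71 with oligo 2 (adjusted p = 0.00442) and stood at 0.065 with oligo 1. For the mean Ext1 was at 0.39 (adjusted p = 0.0676) and passed with the replicate number as a block (adjusted p = 0.0495). Adam17, a protease that sheds Cx3cl1 from the membrane, fell by 0.74 with oligo 1 (adjusted p = 0.00541) and stood at 0.42 with oligo 2 (adjusted p = 0.107), a difference of 1.16 between the siRNAs (adjusted p = 0.000185). The oligo 1 call of Adam17 was lost against Mock (-0.43, adjusted p = 0.0911), with only the groups compared (adjusted p = 0.0563) and without the 3 deviating arrays (-0.61, adjusted p = 0.115).

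**Figure D4:**
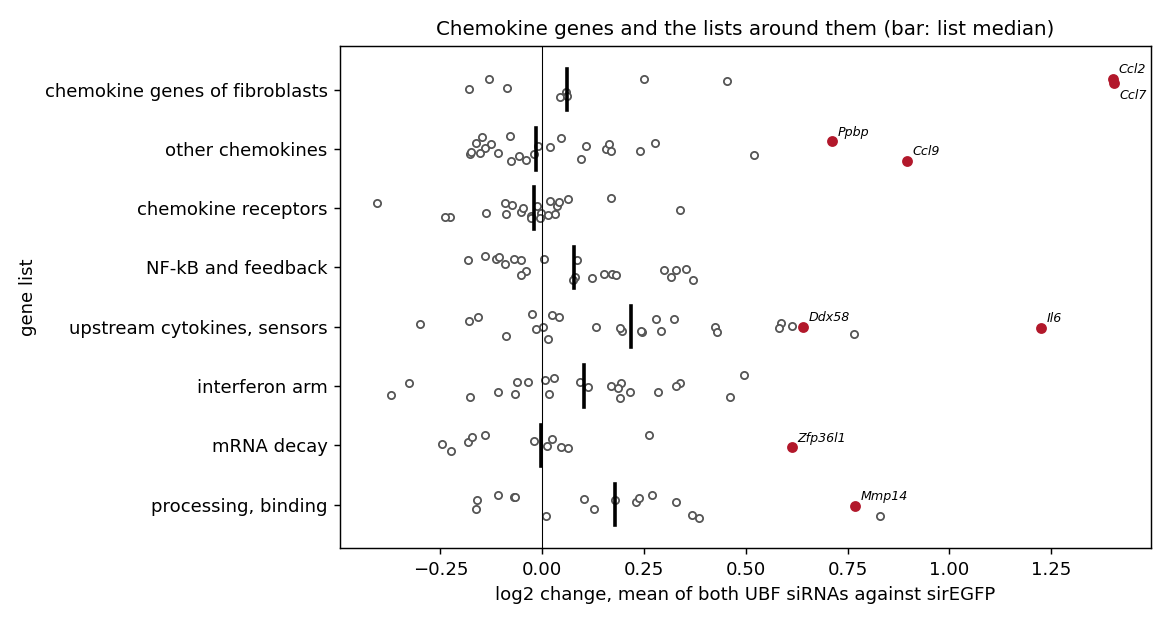
Log2 change for the mean of both UBF siRNAs against sirEGFP (x axis) of each measured gene in the 10 chemokine genes and 7 lists around them (y axis). Points are genes, filled and named where the adjusted p is under 0.05, and vertical bars are list medians. Ccl2 and Ccl7 (both 1.40) stand farthest from 0, and the list medians lie between -0.020 and 0.22.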

How the data were processed

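Total RNA from 12 cultures was labelled and hybridised to Affymetrix arrays. The authors deposited 1 log2 value for every probe set on every array. That scale was inferred from the values, and how background, summary and normalization were handled is not given in the sources used here. Limma is named, without a version, in the submitters' processing notes. Of 35512 probe sets, 21789 carried 1 gene symbol in the platform annotation, 1621 several and 12102 none. By Entrez identifier 21698 matched RefSeq (GRCm38.p6), and 91 kept their symbol. Where a gene had more than 1 probe set (999 genes), the brightest stood for it, which left 19938 genes. The number of arrays limits the precision.

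A linear model with 1 coefficient per group was fitted to all 12 arrays (8 residual degrees of freedom) with lmFit and eBayes of limma 3.58.1 under R 4.3.3, after the code was tested on simulated data. Tests were two-sided, with Benjamini-Hochberg adjustment over all genes and a threshold of 0.05. The design text calls the 3 arrays of a group biological replicates. The members and lists were chosen with earlier results of these data known. Named were all 10 chemokine genes, the 3 genes most correlated with each one called for the mean of both siRNAs, and up to 4 called members per list (by smallest p for the mean) or else the 2 with the smallest p. Listed genes without a measured value were not analysed here.

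Alternatives were leaving out each array, centring, quantile normalization, the replicate block, no dim genes, array weights, the mean of probe sets, only the groups compared, a variance trend and other controls. Deviations of same-numbered arrays from their group means all correlated above r = 0.1 for sirEGFP and oligo 2 (0.18, 0.24 and 0.55). They also did for oligo 1 and oligo 2 (0.12, 0.29 and 0.39). They did not all do so for sirEGFP and oligo 1 (-0.080, 0.29 and 0.55) or Mock and sirEGFP (0.085, 0.089 and 0.16). In total 12 of 18 same-numbered pairs exceeded 0.1, as did 7 of 36 pairs of different number, up to 0.49. Whether the number pairs the arrays is therefore uncertain, and the main fit does not use it.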

Additional observations from a re-analysis of the deposited data

Results flagged for a closer look

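Several genes answered the 2 UBF siRNAs differently by the test of the difference itself (limma, adjusted over all genes). The change with oligo 2 exceeded that with oligo 1 by 1.12 for Ccl2 (adjusted p = 0.00337), by 0.69 for Ccl7 (adjusted p = 0.0326) and by 1.02 for Cxcl10 (adjusted p = 0.00432). Over all genes 2.3% were called higher for this difference, 1.37% lower and 3.67% in either direction. All 3 oligo 2 arrays lay above all 3 oligo 1 arrays for Ccl2, Ccl7 and Cxcl10, as for 9.19% of all genes. Among the listed genes the difference was 0.86 for Il1rap (adjusted p = 0.00289), 0.88 for Zfp36l1 (adjusted p = 0.00617), 0.64 for Ext1 (adjusted p = 0.00632), 1.16 for Adam17 (adjusted p = 0.000185) and 0.57 for Cgas (adjusted p = 0.0111). Against sirEGFP, Adam17 and Cgas were called lower with oligo 1 and not called with oligo 2. Against Mock neither was called with oligo 1, Adam17 at -0.43 (adjusted p = 0.0911) and Cgas at -0.29 (adjusted p = 0.258). The Ccl7 difference was not called in 5 of the 12 fits that each left out 1 array (adjusted p up to 0.160). The Cgas difference lost its call with only the groups compared (adjusted p = 0.0620) and without oligo 2 array 3 (0.53, adjusted p = 0.0578). Leaving out the 3 most deviating arrays keeps a single oligo 1 array, so only sizes are given for that fit. The difference was then 1.12 for Ccl2, 0.95 for Ccl7, 0.49 for Cgas and 0.64 for Ext1. Groups of 3 arrays are too small for a test of single outlying arrays.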

How the results depend on the processing

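Of the 10 chemokine genes, the count called with oligo 1 against sirEGFP was 2. Against both controls averaged, Ccl2 (0.73, adjusted p = 0.0174) and Ccl7 (0.82, adjusted p = 0.00511) kept their oligo 1 calls. The count became 1 with only the groups compared and 0 with Mock as the control. It was also 0 without the 3 most deviating arrays (oligo 1 arrays 1 and 2 and sirEGFP 1), an alternative chosen after seeing the data that leaves fewer arrays. The count for the mean of both siRNAs rose from 2 to 4 when both controls were averaged, and that for oligo 2 against oligo 1 fell from 3 to 1 without the same 3 arrays. Leaving out each array gave 1 to 2 called with oligo 1, 2 to 3 with oligo 2, 2 to 3 for the mean and 2 to 3 between the siRNAs. The replicate block changed no call among the 10 chemokine genes (2, 3, 2 and 3 called). Of the other genes tried under it, Ubtf, Xcr1, Il6st, Il1rap and Ext1 gained a call for the mean.

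Reversed values were small or went with the control. With Mock as the control, Cxcl10 was at 0.041 with oligo 1, Cxcl1 at -0.044 with oligo 2, and for the mean Cxcl1 was at -0.011, Ccl5 at -0.022, Cx3cl1 at 0.037, Ackr3 at -0.53 and Adam17 at 0.15. Ackr3 was at -0.098 against the mean of both controls. Quantile normalization gave Cxcl5 0.012 with oligo 1. Without the 3 arrays, Ccl5 was at -0.042 for the mean and Cxcl1 at 0.081 between the siRNAs, where array weights gave 0.048. Leaving out single arrays gave ranges across 0 for Cxcl5 (-0.12 to 0.066) and Cxcl10 (-0.25 to 0.14) with oligo 1, Ccl5 for the mean (-0.030 to 0.10), Cxcl1 between the siRNAs (-0.14 to 0.0071) and Ccl2 between the controls (-0.42 to 0.019). The cause was not tested.

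Over all genes the calls with oligo 1 went from 493 to 878 with the block, 3814 with array weights, 101 with only the groups compared, 255 without the 3 arrays, 753 against both controls and 155 to 863 without single arrays. With oligo 2 they went from 451 to 773, 1180, 1049 (without the 3 arrays), 979 and 198 to 627, and to 848 against Mock. For the mean they went from 385 to 789, 1949, 236, 793, 982 and 108 to 722, and to 657 against Mock. Between the siRNAs they went from 732 to 3164 with array weights, 380, 211 without the 3 arrays and 328 to 833. Between the controls 0 became 3 with the block and 2 with array weights. The weights rest mostly on oligo 1 array 3 (8.92, against 0.44 and 0.42 for its other arrays).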
